A study of Homo sapiens with 14 samples.

Results

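The set described here was made up of 467 alternative 3′ splice site events in which the 2 competing sites lie 4 to 9 bp apart. They were taken from a table of 114349 splice events, of which 7199 were of the alternative 3′ splice site type and 5671 of those had a mean of at least 10 junction reads per library. The rule used only the distance between the 2 sites and the number of reads, so the inclusion levels did not choose the members. The events covered 446 distinct pairs of sites in 427 genes, and 19 pairs were listed in more than 1 event.

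The samples were HEK293T cells, an established line derived from human embryonic kidney. One group carried the K700K genotype of SF3B1 and is called WT, and the other carried the K700E mutation at the endogenous locus and is called MT. Each has 3 RNA-Seq samples, and 3 libraries of each group were compared. For MT, 6 values were listed per event, and which 3 of them are these samples could not be settled. SF3B1 is the U2 small nuclear ribonucleoprotein subunit that holds the branch point of the intron. The comparison asked which splice choices differed with the mutation, and nothing in the labels said that the 3 libraries of a group came from separate cultures, so the p-values measure the spread between these libraries only.

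An intron normally ends in the dinucleotide AG, preceded by a pyrimidine tract and, further upstream, by the branch point adenosine. When 2 possible ends lie within a few bases of each other, both can be served by 1 branch point, and the choice between them adds or removes a few bases of exon. Mutant SF3B1 is known for the use of cryptic 3′ sites upstream of the usual ones, which usually lie further away than the sites described here. A minor class of introns, the U12-type, is removed by a separate spliceosome that also contains SF3B1, and such introns can end in AC.

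The sequences below show the sites that the results turn on, each written 5′ to 3′ in the direction of transcription from the GRCh38 reference. Capitals mark the bases between the 2 sites, which are exon when the upstream site is used and intron when the downstream site is used. The first 4 have an upstream site that does not follow AG. The next 2 belong to a pair of related kinases with the same 5 extra bases. The following 3 lie in introns with a U12-type start. STAU1 stands for the 36 events whose inclusion level was 1 in all 6 libraries.
SMARCA4: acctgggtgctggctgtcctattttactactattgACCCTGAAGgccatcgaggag
BANP: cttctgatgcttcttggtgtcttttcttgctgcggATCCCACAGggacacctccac
RBM45: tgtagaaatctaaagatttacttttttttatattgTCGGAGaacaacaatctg
HNRNPR: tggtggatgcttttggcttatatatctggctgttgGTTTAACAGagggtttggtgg
MAPK8: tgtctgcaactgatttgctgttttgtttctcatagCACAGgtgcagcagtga
MAPK9: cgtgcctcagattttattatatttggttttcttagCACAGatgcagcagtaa
CCDC43: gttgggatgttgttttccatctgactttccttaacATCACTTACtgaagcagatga
THOC2: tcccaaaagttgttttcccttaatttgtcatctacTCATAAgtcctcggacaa
XRCC5: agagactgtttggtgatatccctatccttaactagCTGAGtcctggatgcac
STAU1: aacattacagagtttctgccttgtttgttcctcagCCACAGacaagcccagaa

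ANKHD1 is shown with 35 intron bases before the canonical exon start and with all 3 of its neighbouring sites (chr5:140438426-140438514, plus strand). Here capitals mark the last 2 bases before the canonical site at 140438461, before the upstream site of the pair at 140438494 and before its downstream site at 140438503.
ANKHD1: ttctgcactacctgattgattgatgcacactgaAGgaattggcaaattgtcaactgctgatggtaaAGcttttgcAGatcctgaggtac

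The deposited value for each event and library was the inclusion level, the fraction of transcripts that contain the longer form, after division of the reads of each form by its effective length. The longer form was made when the upstream site was used. Inclusion reads that were not joined to the upstream site also raise the level, as described below for the 24 members where they could be counted. A high level therefore does not by itself give the use of the upstream site. The events rested on a median of 57.0 junction reads per library, from 10.1 to 10342, with a median of 59.0 in WT and 59.7 in MT. Totals for whole libraries were not used here. Among tested events with 10 to 30 reads the median SD over 3 libraries was 0.0427, and it was 0.0195 at 30 to 100 reads. It was 0.00805 in the next class and 0.00200 in the most deeply read class of 48 events. Small differences were therefore hard to see at low read numbers. Deeply read events with both forms in use could vary more than their class median. The SD was 0.0335 in WT and 0.0307 in MT in SMARCA4 (359 reads), and 0.0337 and 0.00964 in HNRNPR (513 reads).

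At most of these closely spaced sites the longer form had a level near 1. The median inclusion level of the longer form was 0.979 over the 467 events, 354 events (75.8%) were above 0.9, 77 (16.5%) lay between 0.1 and 0.9, and 36 (7.71%) were below 0.1. In 36 events the level was 1 in all 6 libraries, so no test was possible, among them STAU1, TP53BP1 and HNRNPU. In the GENCODE annotation the canonical transcript used the upstream site in 389 events (83.3%) and the downstream site in 54, while 4 had canonical transcripts of both kinds and 20 of neither.

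The neighbouring distances differed from this picture. Sites 3 bp apart, just outside the range, had a median level of 0.682 over 648 events, and 67.7% of them lay between 0.1 and 0.9, whereas sites 4 bp apart, just inside it, had a median of 0.977 over 154 events and 11.7% lay between those levels. Sites 10 to 30 bp apart had a median of 0.226 over 1028 events, and there the canonical transcript used the downstream site in 53.8% of events. Sites over 30 bp apart had a median of 0.937 over 3494 events, and 55.6% were above 0.9, so high levels were not particular to close sites. These are descriptions of event classes, and no test between classes was made.

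The distance was a multiple of 3, which keeps the reading frame where the site is coding, in 130 events (6 or 9 bp), and it was not in 337 events (4, 5, 7 or 8 bp). Some sites, such as those of SNX5, lie in noncoding sequence, where there is no frame. The lower quartile of the inclusion level was 0.729 for the first kind and 0.931 for the second, and 20.8% and 14.8% of the events lay between 0.1 and 0.9. The plot of inclusion levels by distance shows both kinds.

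**Figure D1:**
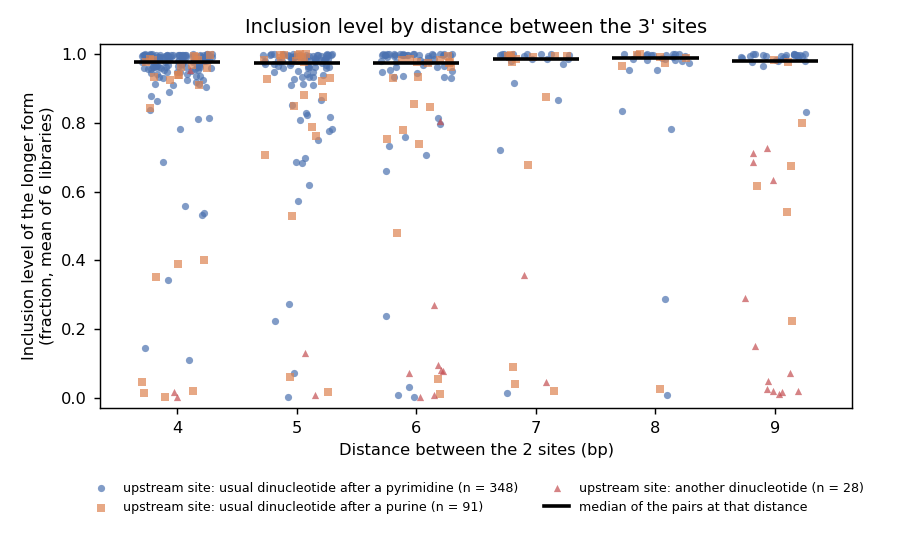
Inclusion level of the longer form (fraction, mean of 6 libraries, vertical axis) for each of the 467 events by the distance between its 2 sites (bp, horizontal axis), with points spread sideways for legibility, the bases before the upstream site shown by colour and shape, and the median at each distance as a bar. Every median lies above 0.97, and most of the 28 triangles, whose upstream site follows another dinucleotide than AG, lie near 0.

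The bases in front of the upstream site went with the level. Where the intron to the upstream site ended in CAG (222 events) or TAG (126 events), the median level of the longer form was 0.985 and 0.984. It was 0.977 with AAG (69 events), 0.287 with GAG (22 events) and 0.0762 in the 28 events with no AG there. Where a purine preceded the AG of the upstream site and a pyrimidine that of the downstream site (74 events), the median was 0.932 and 31.1% lay between 0.1 and 0.9, against 13.2% of the 288 events with a pyrimidine before both.

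The 28 upstream sites without AG were made up of 12 that ended in TG, 6 in AT, 3 each in GG and AC, and 1 each in GC, TC, CC and TT. They stood in 28 of 467 events 4 to 9 bp apart, and such sites were found in 1.54% at 3 bp, 1.85% at 10 to 30 bp and 0.172% beyond 30 bp. Of the 28, 13 lay at 9 bp, where they made up 28.3% of the 46 upstream sites, 8 lay at 6 bp, and 21 of the 28 distances were multiples of 3. In 23 of them the canonical transcript used the downstream site, and 10 upstream sites were not annotated in any transcript.

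The level of the longer form at the TG sites varied widely among genes. Over the 12 events the mean level ran from 0.0172 to 0.713 with a median of 0.114. The highest came from the less-read of 2 events of SMARCA4, with 15.6 reads, while the same sites gave 0.290 over 359 reads. RYK had a mean level of 0.634. RYK, a receptor of the Wnt pathway, had levels of the longer form of 0.695, 0.608 and 0.676 in WT against 0.527, 0.658 and 0.641 in MT. CNBP, a nucleic acid-binding zinc finger protein, had levels of 0.0890, 0.0630 and 0.0900 in WT against 0.0800, 0.0850 and 0.0760 in MT over 677 reads. In both genes the ranges of the 2 groups overlapped.

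SF3B1 mutation was next compared with WT. All 83581 events that varied were tested together with limma after an arcsine square-root transformation of the levels, and a call needed a Benjamini-Hochberg adjusted p under 0.05 and a difference in level above 0.1. Of the 431 events 4 to 9 bp apart that could be tested, 1 was called, with the longer form higher in MT, and 0 were called lower, where the background over all events tested was 0.0311% called, 0.0132% higher and 0.0179% lower. At an unadjusted p under 0.05 limma found 16 of the 431 (3.71%), 5 higher and 11 lower, against 4.47% of all events tested.

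The typical difference was very small. The median difference in level, MT minus WT, was -0.001 over the 431 events and -0.002 over all events tested, and the median size was 0.0130 and 0.0137. The longer form was higher in MT in 194 events and lower in 230, and 87.0% of events differed by no more than 0.05.

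A second count asked where all 3 MT libraries lay outside the range of the 3 WT libraries with a difference above 0.1. This was so in 5 events, each a different pair of sites, or 1.16% of the 431 events tested, against a background of 1.73% of all events tested. In ANKHD1 and MAPK8 the longer form was higher in MT, and in SMARCA4, BANP and RBM45 it was lower (backgrounds 0.751% and 0.979%). Another 10 events differed by more than 0.1 with overlapping libraries, and all of these had between 11.0 and 23.1 reads. With a difference of any size, 14 events lay wholly above WT and 16 wholly below, 6.96% together, against backgrounds of 2.32% above, 3.15% below and 5.46% together. The members' shares were thus near those of all events.

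**Figure D2:**
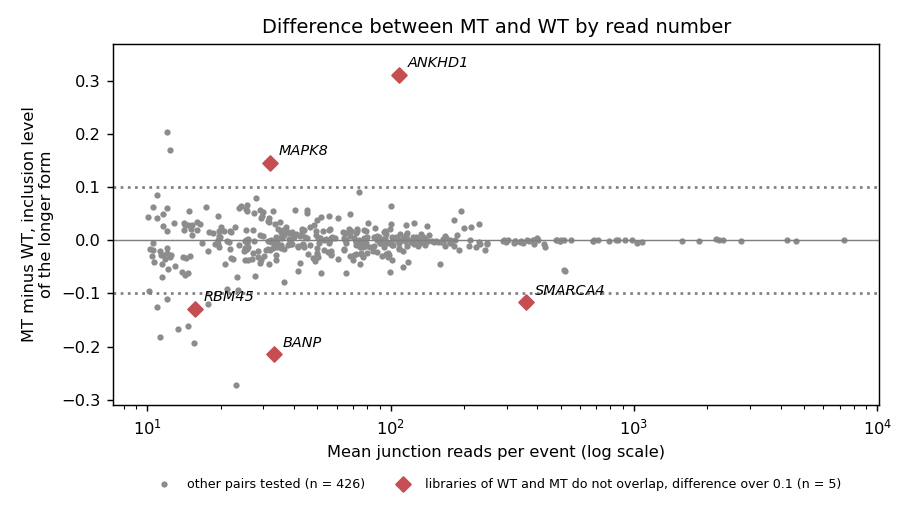
Difference in inclusion level of the longer form, MT minus WT (vertical axis), against the mean junction reads per event (horizontal axis, log scale) for the 431 events tested, with dotted lines at a difference of 0.1 in either direction. Diamonds are the 5 pairs whose WT and MT libraries did not overlap at a difference above 0.1, and the grey points spread less as reads increase.

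ANKHD1, which encodes a large scaffold protein with ankyrin repeats and a KH domain, was the called event. The 9 bases between its 2 sites lie in coding sequence (chr5:140438494-140438502) and the event had 108 reads. The level of the longer form was 0.452, 0.551 and 0.383 in the WT libraries and 0.794, 0.799 and 0.730 in the MT libraries. The lowest MT value was well above the highest WT value. The mean level was 0.462 ± 0.0844 in WT and 0.774 ± 0.0385 in MT (SD, n = 3 each), a difference of 0.312 with a standard error of 0.0536 (limma, adjusted p = 0.0411).

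This call was sensitive to the fit: leaving out any 1 of the 6 libraries raised the adjusted p to between 0.199 and 0.892, with the difference between 0.273 and 0.357.

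Neither ANKHD1 site of the pair is the one the canonical transcript uses. Each was annotated in 1 transcript, and the canonical exon starts 33 bp further upstream, which gave 2 further events for the same exon. When the canonical site was set against the upstream site of the pair, the level of the canonical form was 0.994, 0.978 and 0.987 in WT against 0.511, 0.655 and 0.651 in MT, a difference of -0.381 (limma, adjusted p = 3.37e-07). When it was set against the downstream site, 42 bp away, the levels overlapped, at 0.830, 0.858 and 0.768 in WT against 0.785, 0.855 and 0.795 in MT (limma, adjusted p = 0.962).

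The junction reads show the same exon directly. Reads that joined the preceding exon to the upstream site of the pair averaged 2.67 per library in WT and 65.0 in MT, as the authors' means, while reads to the downstream site averaged 42.0 and 26.7 and reads to the canonical site 244 and 152. Of all reads joined to the 3 sites, the upstream site of the pair therefore took 0.925% in WT and 26.7% in MT, the downstream site 14.6% and 11.0%, and the canonical site 84.5% and 62.4%. The authors' MT means were taken over 6 listed values per event, of which the 3 MT columns of levels are a part, so these means have no SD here and were not tested.

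**Figure D3:**
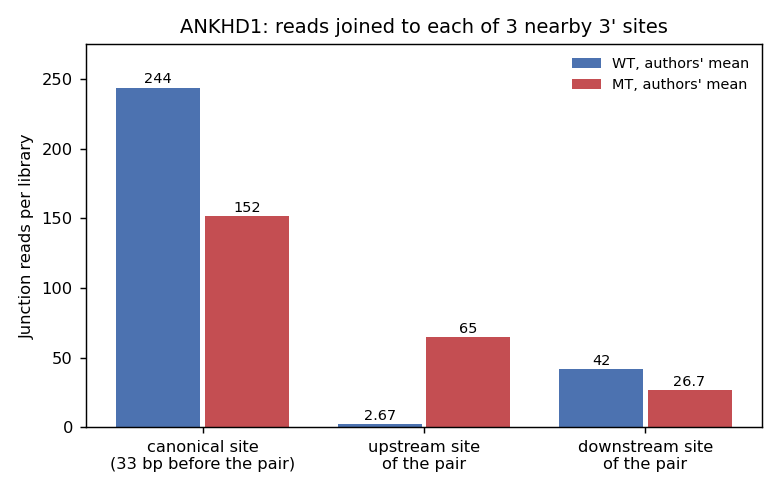
Junction reads per library (authors' mean, vertical axis) joined to each of the 3 neighbouring 3′ sites of ANKHD1 in WT and MT, with no error bars because only means were used. Reads to the upstream site of the pair were 2.67 in WT and 65.0 in MT, and reads to both other sites were fewer in MT than in WT.

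The same counts limit what the level of the 9 bp pair measures. Its inclusion reads averaged 39.7 in WT and 108 in MT, which is 37.0 and 43.2 more than the reads joined to its upstream site, and the inclusion reads of the event between the canonical and the downstream site exceeded the reads joined to the canonical site by the same 37.0 and 43.2. Between the upstream and downstream sites alone, the upstream site took 5.97% of the joined reads in WT and 70.9% in MT, a wider gap than between the mean levels of 0.462 and 0.774. A further 3′ site upstream of the pair, in an event with the same flanking exon, was listed for 24 of the 467 members. In WT the extra inclusion reads exceeded the reads joined to the upstream site in 3 of these 24, in ANKHD1, EI24 and NPRL2. Extra reads were not always matched by reads to the further site. In RPS15 they averaged 305 of 7718 inclusion reads in WT, beside 11.7 and 9.67 reads joined to its further sites. In the other members the extra reads were not counted.

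SMARCA4 encodes BRG1, an ATPase of the SWI/SNF chromatin remodelling complexes, and its upstream site follows TTG (9 bases at chr19:11041298-11041306, coding). Over 359 reads the level of the longer form was 0.381, 0.314 and 0.349 in WT against 0.228, 0.265 and 0.204 in MT. All 3 MT libraries were below all 3 WT libraries. The difference was -0.116 with a standard error of 0.0263, which did not pass the adjustment over all events (limma, adjusted p = 0.569). The same sites in an event with another flanking exon and 15.6 reads gave 0.839, 0.688 and 0.902 in WT against 0.479, 0.605 and 0.763 in MT, where the groups overlapped.

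BANP, a nuclear protein that binds DNA at matrix attachment regions and CpG-rich motifs, has an upstream site after CGG (chr16:88035323-88035331, coding), and in contrast to SMARCA4 its canonical transcript uses that site. Its level was 0.744, 0.837 and 0.799 in WT against 0.697, 0.479 and 0.563 in MT over 33.0 reads. The MT libraries lay below the WT libraries, though the highest of them came near the lowest WT value. The difference was -0.214 with a standard error of 0.0690 (limma, adjusted p = 0.856).

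RBM45, an RNA-binding protein, has an upstream site after TTG that was not annotated in any transcript (6 bases at chr2:178121174-178121179). Its level was 0.180, 0.119 and 0.130 in WT against 0.0430, 0 and 0 in MT. The event had 15.7 reads, so a level of 0 stands on few reads. The difference was -0.129 with a standard error of 0.0236 (limma, adjusted p = 0.856).

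HNRNPR, a heterogeneous nuclear ribonucleoprotein that binds pre-mRNA, also has an upstream site after TTG, 9 bp before the canonical one, and had 513 reads. Its level was 0.167, 0.156 and 0.219 in WT against 0.128, 0.131 and 0.113 in MT, with all MT libraries below WT and a difference of -0.0567 (limma, adjusted p = 0.856). Over the 28 events with an upstream site lacking AG, MT was lower in 18 and higher in 10, beside 230 lower and 194 higher over all 431 members tested. The libraries lay apart, at any size of difference, in 5 lower and 1 higher, 21.4% of the 28, where the background over all events tested was 3.15% lower and 2.32% higher. That 1 was CCDC43, a coiled-coil protein, at 0, 0.008 and 0 in WT against 0.054, 0.020 and 0.026 in MT. The 5 lower were SMARCA4, HNRNPR, BANP, RBM45 and UQCRC1, the last near 0 at means of 0.0110 in WT and 0.00467 in MT. The 28 events held 27 pairs, since that of SMARCA4 was counted in 2 events. In overlapping classes of members the share apart was 17.1% at 9 bp and 11.1% where the canonical transcript used the downstream site. No test was made over these 28 events, and none of them was called.

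MAPK8 and MAPK9 encode the stress kinases JNK1 and JNK2, and in each the last coding exon has a pair of sites 5 bp apart that sets the reading frame of the carboxyl terminus. The bases between the sites were the same in both genes, as printed above, and both upstream sites follow TAG. In MAPK8 the level of the longer form was 0.590, 0.590 and 0.691 in WT against 0.723, 0.770 and 0.817 in MT over 31.9 reads. The libraries did not overlap, and the difference was 0.146 with a standard error of 0.0432 (limma, adjusted p = 0.856). In MAPK9 it was 0.201, 0.245 and 0.274 in WT against 0.258, 0.119 and 0.248 in MT over 97.5 reads, with overlapping groups and a difference of -0.0317. The mean over 6 libraries was 0.697 in MAPK8. Whether the differences in the 2 genes differed from each other was not tested.

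**Figure D4:**
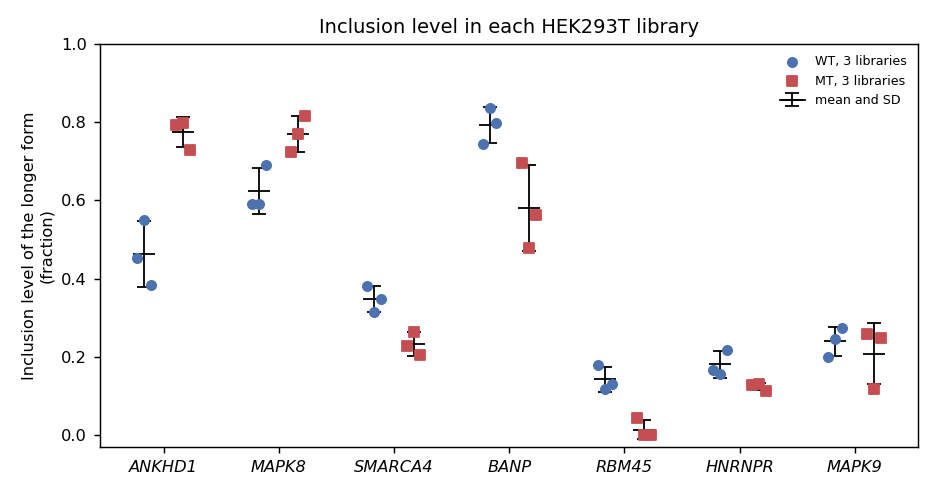
Inclusion level of the longer form (fraction, vertical axis) in each of the 3 WT and 3 MT libraries for 7 genes (horizontal axis), with the mean and SD of each group; for SMARCA4 the event with most reads is shown. MT lies above WT in ANKHD1 and MAPK8, below it in SMARCA4, BANP, RBM45 and HNRNPR, and within overlapping ranges in MAPK9.

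Among the other pairs named for having both forms in use, which had between 28.4 and 520 reads, no difference passed the threshold. LSM7 is a subunit of the ring that binds U6 small nuclear RNA and takes part in mRNA decay. Over 520 reads its levels were 0.871, 0.868 and 0.879 in WT against 0.843, 0.778 and 0.825 in MT. All MT libraries were lower, with a difference of -0.0573 (limma, adjusted p = 0.856). A second LSM7 event with sites 4 bp apart had 35.5 reads. It gave 1, 1 and 1 in WT against 1, 0.955 and 1 in MT, where the groups overlapped. C17orf49, also known as BAP18 and associated with chromatin, had 0.299, 0.314 and 0.335 in WT against 0.371, 0.357 and 0.384 in MT, with all MT libraries higher and a difference of 0.0547 (limma, adjusted p = 0.856). PHF10, a subunit of the PBAF remodelling complex, had 0.808, 0.829 and 0.887 in WT against 0.865, 0.841 and 0.896 in MT. The groups overlapped in PHF10, as they did in PRRC2C, DUS1L, GOLGA7, SNX5, SH3GL3 and ZNF280D, whose differences ran from -0.0577 in ZNF280D to 0.0300 in PRRC2C.

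Splicing factors held few such pairs. Of 38 listed genes for recognition of the 3′ splice site and branch site, 2 had a member, and neither was called, beside 0.0311% of all events tested. A count of 0 among so few events cannot be told apart from that share, here and in the lists below. SF1, the branch point-binding protein, had levels of 0.948, 0.934 and 0.907 in WT against 0.906, 0.908 and 0.939 in MT over 429 reads, and U2SURP, a U2-associated protein, was at 0.995 or above in every library. Of 68 other splicing genes 5 had a member, HNRNPR, HNRNPU, LUC7L3, PTBP1 and SRSF5. Of the 4 that could be tested 0 were called, beside the same 0.0311%. PTBP1, which represses exons with pyrimidine tracts, was at 0.995 or above in all libraries over 676 reads, and SRSF5, an SR protein, at 0.998 or above.

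Of 49 genes for R-loops, the THO complex and RNA decay, 2 had a member. STAU1, a double-stranded RNA-binding protein of RNA decay and transport, was at 1 in all 6 libraries over 271 reads. THOC2 is the scaffold of the THO complex that packages nascent mRNA. In its event with 164 reads, levels were 0.753, 0.822 and 0.843 in WT against 0.824, 0.812 and 0.780 in MT. The difference there was -0.000667, and that of a second THOC2 event was -0.00933. Of 83 genes for DNA damage and replication, 3 had a member, and 0 were called, beside 0.0311% of all events tested. TP53BP1 was at 1 throughout, and MSH6, of mismatch repair, was at 0.991 or above in its well-read event. XRCC5, the larger Ku subunit of end joining, was at 0.006 or below over 920 reads.

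Of 65 genes for the centromere, kinetochore and spindle, 3 had a member and 0 were called, beside 0.0311% of all events tested. PLK4, the kinase that starts centriole duplication, had levels of 0.942, 0.980 and 0.968 in WT against 0.948, 0.868 and 0.987 in MT. KNL1, a scaffold of the kinetochore, had 1, 1 and 0.965 in WT against 1, 0.902 and 0.938 in MT over 29.0 reads. The forms share 3 leading bases in PLK4 and 6 in KNL1, so a longer overhang is needed to tell them apart. CEP192, which recruits centrosome proteins, had levels of 0.057, 0 and 0.046 in WT and 0 in all 3 MT libraries over 26.9 reads. The groups overlapped in all 3 genes.

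Of 55 genes known for 3′ sites that respond to mutant SF3B1, 4 had a pair 4 to 9 bp apart, namely ANKHD1, BRD9, KANSL3 and STAU1, and 1 of the 3 that could be tested, ANKHD1, was called, against 0.0311% of all events tested. The list was drawn up with earlier results of these data known, and the call was lost when any 1 library was left out. In BRD9, a subunit of a SWI/SNF complex, the level was 0.953, 0.983 and 1 in WT against 0.969, 1 and 0.978 in MT. In KANSL3, of the NSL acetyltransferase complex, it was 1, 0.896 and 0.948 in WT against 0.914, 0.851 and 0.975 in MT. Both genes had overlapping groups.

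Introns with a U12-type start were found among the members. The first 8 intron bases were ATATCCTT in 5 members and GTATCCTT in 10, together 3.21% of the 467. It was 0.723% of all 5671 alternative 3′ site events, 0.309% at 3 bp, 0.584% at 10 to 30 bp and 0.258% beyond 30 bp. Of the 41 events with such a start, 15 were members. Another 2 lay at 3 bp, 6 at 10 to 30 bp and 9 beyond 30 bp. The others lay 1 to 2 bp apart, in a small class where the share was higher than among the members. Such starts were therefore not particular to 4 to 9 bp. The branch-site letters CCTTAAC, searched on the transcribed strand in the last 40 intron bases before the upstream site, were found in 11 members, 5 of 30 with a site lacking AG and 6 of 437 with AG at both, and in 0.370% of all 5671. They can be read in the CCDC43 and XRCC5 sequences above, and in CCDC43 they end directly before the upstream site. A match gives letters only and was not taken as a functional site.

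Unlike the members as a whole, the 15 introns with these starts mostly had low levels of the longer form, with a median of 0.0733. XRCC5, DDB1, NAA20 and ALG6 were below 0.03 in every library. CNEP1R1 at 1 throughout, RABGGTA, VEZT and THOC2 were the members with mainly the longer form. The 14 that could be tested differed by between -0.0697 and 0.0577, and none of the 14 was called. The libraries lay apart, at any size of difference, in CCDC43 (higher in MT) and RABGGTA (lower in MT) (limma, adjusted p = 0.856 for each). CCDC43 was near 0, at means of 0.00267 in WT and 0.0333 in MT. RABGGTA was at 1 in all WT libraries and at 0.903, 0.962 and 0.926 in MT over 23.4 reads. The background over all events tested was 2.32% higher and 3.15% lower. With 1 event in each direction, the 14 are too few to set against these shares.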

How the data were processed

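RNA-Seq of 3 WT and 3 MT HEK293T libraries was analysed. R-loop peak lists of Nalm-6 cells from the same series were not used here. The authors aligned reads to GRCh38 and used the statistical model of rMATS, and STAR is named in the processing notes of the submitters, with no version in the sources used here. They deposited inclusion levels per library as fractions from 0 to 1, with group means of junction reads, and the reads of the longer form had been divided by an effective length of 95 to 100 against 92 for the shorter. Their own p-values, false discovery rates and differences in level were in the table and were not used. The 3 MT columns equal the 1st, 2nd and 6th of 6 listed MT values in 100% of events. Which of the 6 are the 3 MT samples could not be settled, so the columns may not all hold those samples.

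Coordinates were matched to GRCh38 and GENCODE v44, and AG preceded 94.0% of upstream and 98.5% of downstream sites. Levels of all events with a mean of at least 10 reads that varied among libraries were fitted with limma 3.58.1 in R 4.3.3, letting the prior variance follow the logarithm of read number, after the script was tested on simulated data. Tables were joined with Python 3.11.15 and pandas 2.3.3, and sequences read with pysam 0.24.0. Where 82 members share 1 leading base between the 2 forms, 11 share 2 and 4 more than 2, a longer overhang is needed to tell the forms apart. Depth of whole libraries is unknown, and counts could not be tested since MT reads were not tied to the 3 columns. The members and gene lists were chosen with earlier results of these data known. Named genes were those called, those with libraries apart by more than 0.1, the most-read pairs with intermediate levels at each distance and the most-read members of each list, and other genes were named after their values were seen: RYK, CNBP, CCDC43, UQCRC1, the members with a U12-type start, and EI24, NPRL2 and RPS15. Alternatives were the logit scale, read minima of 0, 20 and 50, no variance trend, alternative 3′ sites alone, a difference of 0.05, 1 event per pair, a replicate block and each library left out.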

Additional observations from a re-analysis of the deposited data

How the results depend on the processing

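The single call, ANKHD1, depended on the fit. The number called with the longer form higher in MT was 0 in place of 1 on the logit scale, with at least 50 reads, without the variance trend and with the replicate block, and 0 to 0 with each library left out, where the cause was not tested. Its limma adjusted p was 0.366, 0.0533, 0.315 and 0.191 in the first 4 of these, 0.199 to 0.892 with a library left out, and 0.0498, 0.0392 and 0.00328 with no read minimum, at least 20 reads and alternative 3′ sites alone, where the call was kept. Calls in the lower direction were 0 under every alternative. The replicate block used the numbers of the WT and MT columns. Columns of the same number had correlations of deviations of 0.0997, 0.0974 and 0.0271. Each was higher than any between WT and MT columns of different numbers, which ran from -0.103 to 0.0119. The main fit used no block. The MT columns are tied to no sample, so whether replicate numbers pair the samples could not be tested.

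Pairs with libraries apart by more than 0.1, 2 higher and 3 lower in MT, became 5 and 5 with no read minimum, 1 and 1 with at least 50 reads, 6 and 9 at a difference above 0.05, and 3 to 5 and 5 to 8 with 1 library left out, where fewer libraries have to lie apart. The share over all events was counted only for the main setting, so these changes are not read as results about the members. The median difference of -0.001 ran from -0.00167 to 0.000167 with a library left out, the latter without the third MT column. Of 304 alternative values for 24 named events, 279 kept direction and side of the threshold. The sign turned when 1 library was left out in 9 events that were not called, with ranges of differences of -0.0565 to 0.0130 in MAPK9, -0.0295 to 0.0708 in SH3GL3, -0.0340 to 0.00650 in DUS1L, -0.0878 to 0.00417 in SNX5, -0.00233 to 0.000167 in U2SURP, -0.0272 to 0.0178 in THOC2, -0.000833 to 0.00200 in XRCC5, -0.00150 to 0.00317 in MSH6 and -0.0553 to 0.00417 in PLK4. Low read numbers limit RBM45, BANP and MAPK8 in particular.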
